A study of Mus musculus with 4 samples.

Results

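Snail-only peaks inside gene bodies are the sites of the Snail chromatin immunoprecipitation (ChIP-seq) library that lay within genes, away from gene ends, and that no Slug peak touched. They were the rows of the Snail list with a score of at least 100 and a width below 2000 bp that shared no base with a Slug row. Their midpoint also lay inside a RefSeq gene and more than 1 kb from the ends of every gene. Of 28375 Snail peaks, 17877 reached the score, 16467 of these were narrow enough, 13724 had no Slug overlap, 9730 of these were centred in a gene and 3439 also kept clear of gene ends. The study compared how Snail and Slug activate the epithelial-mesenchymal transition (EMT) in mouse breast cancer cells. The Snail ChIP library came from pBl.3G, a line labelled mesenchymal in which Snail is high, and its antibody is labelled as recognising Snail and Slug together. The Slug ChIP library came from pBl.1G, a line labelled epithelial in which Slug is high, and used a rabbit monoclonal antibody to Slug. Input DNA of both lines was not analysed here. No treatment is labelled. Both are MMTV-PyMT breast cancer lines, from a model in which the mouse mammary tumour virus promoter drives polyoma middle T antigen in the mammary gland. Each factor had 1 library, so factor, antibody and cell line cannot be told apart in any contrast of the 2 lists, and no test across replicates was possible. The files hold peaks only, with no expression level against which to check the labelled epithelial or mesenchymal state.

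Snail, the product of Snai1, is a zinc finger repressor that binds E-boxes, the best known of which reads CAGGTG, and recruits histone deacetylases and other corepressors. Its classical targets are promoters of epithelial genes such as the E-cadherin gene, and it can also occupy sites inside genes. A site inside a gene may be an enhancer in an intron or the start of a shorter transcript, since many mammalian genes have several promoters. A gene's span in the annotation runs from its outermost start to its outermost end, so a promoter used by most transcripts can lie well inside it. Promoters of broadly expressed genes often lie in CpG islands, stretches rich in unmethylated CG dinucleotides, and often carry GC boxes, the GGGCGG element bound by Sp1.

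Most of the strongest gene-body sites sat on start sites inside the annotated span. The 4 highest-scoring of these are shown first, as the 250 bases before and 50 bases after the annotated start that lay within 500 bp of the peak midpoint (RefSeq, GRCm38.p6, the assembly of mm10). Capitals mark CAGGTG on either strand (CAGGTG or CACCTG) and GC boxes on either strand (GGGCGG or CCGCCC).
Spg11, chr2:122118337-122118636, minus strand: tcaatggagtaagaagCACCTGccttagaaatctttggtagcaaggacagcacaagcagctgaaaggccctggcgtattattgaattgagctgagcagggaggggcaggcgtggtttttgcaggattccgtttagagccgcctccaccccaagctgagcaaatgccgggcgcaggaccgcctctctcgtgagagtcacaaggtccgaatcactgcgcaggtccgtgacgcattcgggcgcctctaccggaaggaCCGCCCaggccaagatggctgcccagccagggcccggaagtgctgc
Zfp672, chr11:58323316-58323615, minus strand: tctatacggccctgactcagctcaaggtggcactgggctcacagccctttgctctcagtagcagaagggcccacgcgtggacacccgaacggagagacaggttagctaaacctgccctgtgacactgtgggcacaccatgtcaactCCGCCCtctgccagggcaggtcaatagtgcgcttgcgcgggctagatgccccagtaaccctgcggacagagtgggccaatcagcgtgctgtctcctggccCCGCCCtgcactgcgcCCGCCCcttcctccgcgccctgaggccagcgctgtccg
Tcf25, chr8:123373461-123373760, plus strand: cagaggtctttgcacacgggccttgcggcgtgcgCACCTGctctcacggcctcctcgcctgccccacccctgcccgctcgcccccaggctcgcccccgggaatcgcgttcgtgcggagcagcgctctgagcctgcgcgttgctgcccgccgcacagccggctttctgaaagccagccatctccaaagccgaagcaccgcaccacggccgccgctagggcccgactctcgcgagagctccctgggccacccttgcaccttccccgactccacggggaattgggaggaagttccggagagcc
D2hgdh, chr1:93824990-93825289, plus strand: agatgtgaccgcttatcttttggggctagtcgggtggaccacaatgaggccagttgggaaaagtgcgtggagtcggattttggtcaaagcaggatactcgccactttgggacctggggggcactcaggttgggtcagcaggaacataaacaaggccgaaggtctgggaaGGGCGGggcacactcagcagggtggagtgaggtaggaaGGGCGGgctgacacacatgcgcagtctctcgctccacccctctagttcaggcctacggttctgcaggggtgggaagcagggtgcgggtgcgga
Spg11 encodes spatacsin, a protein of lysosome recycling. Zfp672 encodes a zinc finger protein, Tcf25 a component of the ribosome quality control complex and D2hgdh the mitochondrial D-2-hydroxyglutarate dehydrogenase. The Spg11 and Tcf25 sequences each held 1 CAGGTG E-box, and those of Zfp672 and D2hgdh held none. Zfp672 had 3 GC boxes, D2hgdh 2, Spg11 1 and Tcf25 none.

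Of the genes leading a gene list, 6 had a highest peak with a score of 1000 or more at such a start. The 5 with the peak centred nearest to the start are shown as examples from adhesion and migration genes.
Arhgef7, chr8:11758115-11758414, plus strand: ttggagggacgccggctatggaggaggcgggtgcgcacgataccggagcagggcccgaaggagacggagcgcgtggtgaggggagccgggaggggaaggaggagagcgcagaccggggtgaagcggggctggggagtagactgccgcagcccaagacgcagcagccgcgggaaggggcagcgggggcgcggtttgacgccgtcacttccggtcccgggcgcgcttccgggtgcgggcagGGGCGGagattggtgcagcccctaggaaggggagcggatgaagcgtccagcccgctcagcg
Nedd9, chr13:41358952-41359251, minus strand: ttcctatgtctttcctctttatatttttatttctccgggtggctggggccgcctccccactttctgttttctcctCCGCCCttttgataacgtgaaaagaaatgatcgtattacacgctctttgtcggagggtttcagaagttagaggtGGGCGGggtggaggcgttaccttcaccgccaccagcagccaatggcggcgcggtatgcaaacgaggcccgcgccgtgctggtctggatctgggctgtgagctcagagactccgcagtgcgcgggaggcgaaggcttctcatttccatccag
Itgav, chr2:83724147-83724446, plus strand: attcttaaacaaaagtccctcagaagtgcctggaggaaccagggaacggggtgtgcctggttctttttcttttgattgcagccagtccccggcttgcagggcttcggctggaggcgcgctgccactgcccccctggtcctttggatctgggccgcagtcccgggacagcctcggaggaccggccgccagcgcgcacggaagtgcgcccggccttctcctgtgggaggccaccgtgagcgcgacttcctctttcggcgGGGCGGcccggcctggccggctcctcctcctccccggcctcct
Tjp1, chr7:65371195-65371494, minus strand: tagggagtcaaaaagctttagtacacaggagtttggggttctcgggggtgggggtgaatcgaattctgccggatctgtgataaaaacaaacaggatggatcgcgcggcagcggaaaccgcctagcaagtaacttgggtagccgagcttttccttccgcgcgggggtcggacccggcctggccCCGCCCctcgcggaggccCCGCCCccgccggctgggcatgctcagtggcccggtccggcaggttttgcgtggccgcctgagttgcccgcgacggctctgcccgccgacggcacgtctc
Arhgap29, chr3:121967556-121967855, plus strand: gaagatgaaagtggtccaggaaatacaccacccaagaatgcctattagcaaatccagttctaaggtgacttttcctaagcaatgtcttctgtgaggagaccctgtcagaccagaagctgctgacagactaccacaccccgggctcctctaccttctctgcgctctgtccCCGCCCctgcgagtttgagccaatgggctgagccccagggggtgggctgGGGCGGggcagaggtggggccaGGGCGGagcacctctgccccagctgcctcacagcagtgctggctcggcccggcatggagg
In all 5 sequences CAGGTG was missing on both strands, and each held at least 1 GC box. Of all 776 starts inside genes with a Snail-only gene-body peak, 17.7% held CAGGTG and 63.5% a GC box. These 5 sequences are thus too few to show a difference from the sequences above. The midpoint of the peak lay 7 bp upstream of the Tjp1 start, 14 bp downstream of the Arhgap29 start and 43 bp downstream of the Nedd9 start. At Itgav it lay 119 bp downstream and at Arhgef7 141 bp upstream. The scores were 1522 at Arhgef7, 1362 at Nedd9, 1225 at Itgav, 1082 at Tjp1 and 1077 at Arhgap29. The other of the 6, Cdc42bpb, which encodes a kinase effector of Cdc42, had its peak of score 1284 centred 500 bp upstream of the start, at the limit of the window.

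Scores were the authors' and rank peaks within their own list. The 3439 peaks scored between 100 and 2808, with a median of 179.8 (quartiles 128 and 366), and were 292 to 1998 bp wide with a median of 816 bp. Their midpoints lay a median of 6.84 kb from the nearest gene end (quartiles 2.53 and 17.4 kb). The score, width and distance chose these peaks, so these values describe them and nothing is tested on them. Just inside the score limit were a peak in Shb at 100, and just outside it peaks in Wdfy2 and Abtb2, both at 99.97. The widest peak admitted, in Hivep2, measured 1998 bp, and the narrowest left out for width, in Coro7, 2000 bp. The peak nearest to a gene end, in Tle5, lay 1001 bp away, and one in Sidt2 at 1000 bp was left out. The peaks made up between 10.7% (chromosome 15) and 14.2% (chromosome 4) of all Snail peaks of each chromosome except Y, where none of 19 Snail peaks qualified.

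The first question was what lies under these peaks. Annotated starts were taken from a RefSeq table of 32851 starts in 27025 genes. Starts on chromosome 18, which held 110 of the peaks, were not analysed. Of the other 3329 Snail-only gene-body peaks, 711 (21.4%, exact 95% interval 19.98 to 22.8) had their midpoint within 500 bp of an annotated start. All 711 starts belonged to a gene that held the peak. Among Slug-only gene-body peaks chosen by the same limits, 34 of 7169 (0.474%, 0.329 to 0.662) did so, and among Snail gene-body peaks that overlapped Slug, 101 of 834 (12.1%, 9.97 to 14.5). The Snail-only share exceeded the Slug-only share by 20.9 percentage points (Newcombe 95% interval 19.5 to 22.3) and that of the overlapping Snail peaks by 9.25 points (6.50 to 11.7). For scale, of the 1108.5 Mb of gene-body sequence more than 1 kb from every gene end, 0.395% lies within 500 bp of an annotated start. The Slug-only share was thus close to the share of sequence, and the Snail-only share far above it. The Slug-only share does not describe all Slug peaks, since every Slug peak that overlapped a Snail peak was left out. Of the starts inside a gene and more than 1 kb from every gene end, 24.5% had a Snail peak of any kind. A Slug peak of any kind was found at 4.15% of them. Slug-only peaks were narrower, with a median of 257 bp against 816 bp for Snail-only peaks, and the part of width in the difference was not tested. The intervals cover counting error only and treat peaks as independent. The start table did not match every gene: 1904 of 2304 protein-coding host genes outside chromosome 18 were in it, and among the 2694 peaks whose host genes all were, the share was 26.1% (24.4 to 27.8).

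The peaks were centred tightly on these starts. The 100 bp bins on either side of the start held 142 peaks upstream and 168 downstream. The bins from 400 to 500 bp away held 16 upstream and 18 downstream. The 711 midpoints, within 500 bp by choice, had a median offset of 33 bp downstream of the start, with quartiles 86 bp upstream and 144 bp downstream. Upstream of the start lay 301 and downstream 408.

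**Figure D1:**
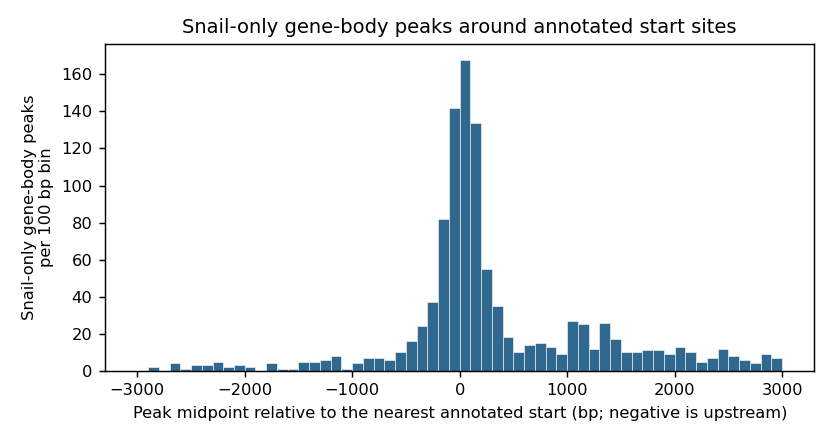
Number of Snail-only gene-body peaks (vertical axis) by the position of the peak midpoint relative to the nearest annotated start (horizontal axis, bp in 100 bp bins, negative is upstream). Most of the peaks drawn lie within 500 bp of a start, where 711 were counted, and the smaller rise from 1000 bp downstream begins where the distance rule first admits peaks near a gene's outermost start.

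The share at a start climbed steeply with the score. Of Snail-only gene-body peaks with scores from 100 to below 150, 5.50% (4.31 to 6.90, 1273 peaks) lay at a start. The share was 15.1% from 200 to below 300 (476 peaks), 57.9% from 500 to below 1000 (399 peaks) and 74.4% (67.9 to 80.2) among the 207 peaks scoring 1000 or more. Gene-body Snail peaks that overlapped Slug climbed too, to 43.8% (32.2 to 55.9, 73 peaks) at 1000 or more. With scores of at least 500, the Snail-only share of 63.5% stood 23.3 points (14.8 to 31.3) above the 40.2% of the overlapping Snail peaks. Slug-only gene-body peaks showed no such climb: their shares were 0.533% in the lowest class and 0.341% from 500 to below 1000. None of the 32 Slug-only peaks scoring 1000 or more lay at a start (exact interval 0 to 10.9%). Peaks also grew wider with the score, with median widths of 637 bp in the lowest and 1216 bp in the highest class of Snail-only peaks. Slug-only peaks had medians of 237 bp and 523 bp in the same 2 classes.

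**Figure D2:**
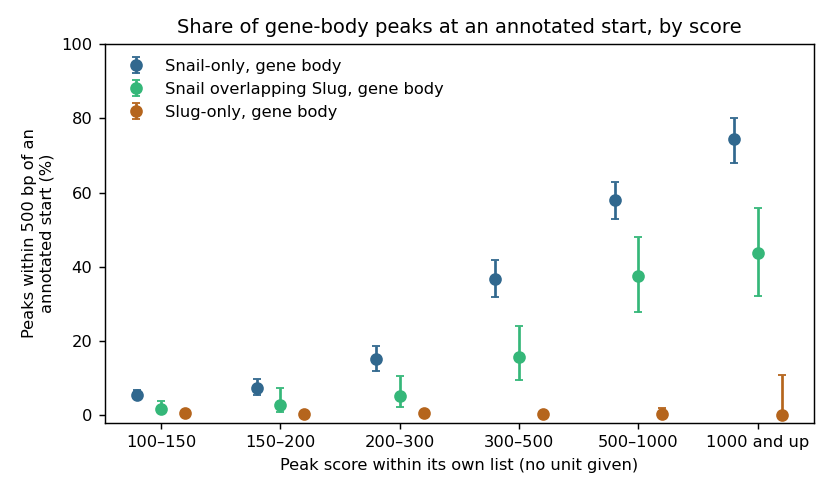
Share of gene-body peaks within 500 bp of an annotated start (vertical axis, %) by peak score within each list (horizontal axis), for Snail-only, Slug-overlapping Snail and Slug-only peaks. Points are shares and bars exact 95% intervals, and the Snail-only share reaches 74.4% while every Slug-only share is below 1%.

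The 12 highest-scoring peaks show the same arrangement. At the top stood a peak in Cfap97, a cilia-associated gene, at chromosome 8, 46163097 to 46164104, with a score of 2808. Next came one in Asah1, which encodes acid ceramidase, at 41374255 to 41375271 of chromosome 8 with a score of 2279. Of the 12 peaks, 7 lay within 500 bp of a start. These were Spg11 at 2246, Zfp672 at 2210.5, Tcf25 at 2202, D2hgdh at 2136, the zinc finger gene Zfp119b at 2092, Btbd10 at 2014 and the cyclin L1 gene Ccnl1 at 2013. The peak in Rfx3, which encodes a ciliary transcription factor, scored 2028 and was centred 611 bp upstream of its nearest annotated start. The remaining 2 were a peak in Pcmtd1 at 2031 and one inside both Zscan30 and Zfp397 on chromosome 18 at 2018. Starts of Cfap97, Asah1 and Pcmtd1 were not analysed.

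Next, the starts themselves were compared. The table held 4728 starts inside a gene and more than 1 kb from every gene end. Of these, 776 starts in 671 genes (16.4% of the internal starts) had a Snail-only gene-body peak within 500 bp, 24.5% had a Snail peak of any kind and 4.15% a Slug peak of any kind. Among the 28123 starts within 1 kb of a gene end, 35.2% had a Snail peak and 5.26% a Slug peak. For 329 of the 671 genes (49.0%, 45.2 to 52.9) the marked start was the only one in the table, and for another 73 it was the most upstream one listed. For these genes the table lists no start at the outermost 5′ end of the span. In the other 269 genes (40.1%, 36.4 to 43.9) it was a later start. The most upstream listed start of these genes also had a Snail peak in 125 cases, and had none in 144 (53.5%, 47.4 to 59.6). Some of the 125 are pairs of starts so close that 1 peak can count at both. The starts lay 144 bp apart at Colgalt1 and 343 bp apart at Odf2.

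Genes with a Snail peak at the later start and none at the most upstream one included Arhgef7, Tpm3 and Clta. Arhgef7 encodes beta-PIX, an exchange factor for Rac1 and Cdc42, and its marked start lay 30.3 kb downstream of the most upstream of 3 listed starts, with a score of 1522. The tropomyosin gene Tpm3 had a peak with a score of 1174 at a start 6.87 kb downstream of its most upstream one. Clta, the clathrin light chain A gene, had one with a score of 1237 at 8.23 kb. Marked at both were Zfp672 (later start at 6.97 kb, score 2210.5), Abr (83.2 kb, 1507) and Kansl1 (27.1 kb, 1694), a subunit of a histone acetyltransferase complex. Tpm3, Clta, Abr and Kansl1 were chosen after their values were seen. The genes with a Snail-only peak at an internal start were not marked more often at their outermost 5′ end: 197 of 659 protein-coding genes of known strand (29.9%, 26.4 to 33.5) had a Snail peak within 1 kb of it. Of 1760 protein-coding genes with internal starts and no Snail peak at any of them, 562 (31.9%, 29.8 to 34.2) did, so the intervals overlap. Many genes of the first group have no listed start at that end, as given above. How many of the 1760 lack one was not analysed, so the shares may mix genes with and without such a start.

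Internal starts with a Snail-only gene-body peak were richer in CG dinucleotides and GC boxes than those without a Snail peak, and held CAGGTG no more often. In the 300 bases around each start, the ratio of observed to expected CG dinucleotides had a median of 0.743 (quartiles 0.557 and 0.897) at the 776 starts with a Snail-only gene-body peak. It was 0.244 (0.134 and 0.402) at the 3572 internal starts with no Snail peak, so the quartile ranges do not overlap. The median GC content was 61.3% at the starts with a Snail-only peak and 49.3% at those with no Snail peak. A GC box was present at 63.5% (60.03 to 66.9) of starts with a Snail-only peak and at 18.8% (17.5 to 20.1) of those with none, a difference of 44.7 points (41.0 to 48.3). TATAAA, on either strand, was found at 5.41% of starts with a Snail-only peak and at 15.2% of those with none. CAGGTG, on either strand, was present at 17.7% (15.0 to 20.5) of starts with a Snail-only peak, at 20.7% (19.4 to 22.1) of those with no Snail peak and at 20.2% of all starts in the table. The difference between the marked and the unmarked internal starts was -3.06 points, with an interval of -5.93 to 0.0603. The looser E-box CANNTG, which includes CAGGTG, was found at 63.3% of starts with a Snail-only peak and 77.1% of those with none. GC boxes were present at 35.7% and CANNTG at 72.3% of all starts. The GC box, TATAAA and CANNTG shares were not split by CpG ratio or GC content. The part of base composition in their differences was therefore not tested. CCAAT, on either strand, differed by -1.26 points (-4.90 to 2.49), and the AP-1 element TGACTCA, on either strand, by -0.949 points (-2.43 to 0.887). The 380 internal starts with another Snail peak were close to those with a Snail-only gene-body peak in composition, with a median CpG ratio of 0.706 and a GC box at 60.3% (55.1 to 65.2). They held CAGGTG at 22.9% (18.8 to 27.5). The CpG ratio and GC boxes were thus not particular to starts with a Snail-only gene-body peak. These are letter matches within 300 bases around a start, and most peaks extend beyond that window.

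Along the range of CpG ratios the share of internal starts with a Snail-only gene-body peak grew from class to class. It was 2.46% (1.81 to 3.25) of 1914 starts with a ratio below 0.25, 8.35% of 1317 starts up to 0.5, 34.5% of 707 up to 0.75, 47.1% of 613 up to 1 and 48.6% (41.0 to 56.2) of 177 at 1 and above. The intervals of the last 2 classes overlap. Slug peaks of any kind were found at 1.88% of the starts in the lowest class and at 9.14% (6.97 to 11.7) in the class from 0.75 to 1. CAGGTG was present at 27.7% (15.6 to 42.6) of starts with a Snail-only peak and 21.9% (19.98 to 23.8) of those with no Snail peak in the class below 0.25. The shares were 17.3% and 20.1% from 0.25 to 0.5, and 20.9% and 20.2% from 0.5 to 0.75. They were 15.9% and 14.9% from 0.75 to 1, and 9.30% (4.10 to 17.5) and 19.3% (10.05 to 31.9) at 1 and above. The intervals overlapped in each of the 5 classes.

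**Figure D3:**
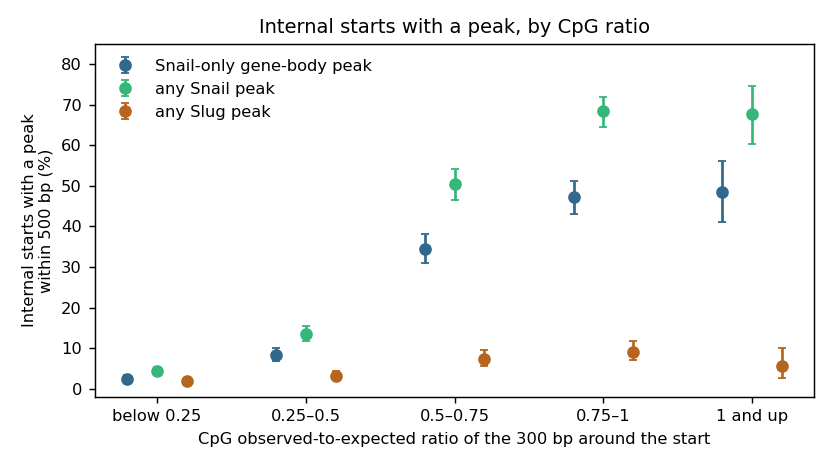
Share of internal starts with a peak within 500 bp (vertical axis, %) by the observed-to-expected CpG ratio of the 300 bases around the start (horizontal axis, 5 classes), for Snail-only gene-body peaks, any Snail peak and any Slug peak. Points are shares and bars exact 95% intervals, and the Snail-only share runs from 2.46% in the lowest to 48.6% in the highest class.

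Peaks with no listed start within 500 bp, called away from starts here, had lower scores and lay farther from gene ends. They include peaks in genes whose starts were not analysed, such as Cfap97 and Asah1. The contrasts of score, width and distance thus mix such peaks with peaks off starts. Outside chromosome 18, all host genes were in the start table for 2694 of 3329 peaks. Of these 2694, 703 lay at a start. The 711 peaks at a start had a median score of 549.9 (quartiles 286 and 911), and the other 2618 outside chromosome 18 one of 158.1 (122 and 239.7). The median width was 992 bp at starts and 775 bp away from them, and the median distance from the nearest gene end 4.06 kb and 7.67 kb. Of the peaks at a start 98.7% were in protein-coding genes, and of those away from starts 84.8%. Direction along the gene could be read for peaks with a single protein-coding host of known strand. Of 694 such peaks at a start, 82.3% (79.2 to 85.05) lay in the first 50% of the gene and 31.6% in the first 10%. The 1697 peaks away from starts were spread nearly evenly along the gene, with 52.2% (49.7 to 54.6) in the first 50% and 11.6% (10.1 to 13.2) in the first 10%. Their median position was 48.2% of the way from the 5′ end.

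The distance to other peaks was read for these peaks only, so whether the shares below are high or low among all Snail peaks is unknown. Another Snail peak lay within 10 kb of 47.6% (45.9 to 49.3) of the Snail-only gene-body peaks, and the nearest one lay a median of 10.7 kb away. A Slug peak lay within 10 kb of 39.9% (38.3 to 41.6) and within 1 kb of 129 peaks (3.75%), although none overlapped by the choice of peaks.

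The second question was which genes held these peaks. They lay in 2866 genes of all kinds, of which 2377 were protein-coding, which is 10.9% of the 21887 protein-coding genes. Only 396 peaks lay solely in long noncoding RNA genes. One peak was found in 1895 of the protein-coding hosts and 2 or more in 482. Long genes held them more often: ordered by length into 10 classes of nearly equal size, protein-coding genes held a peak in 1.05%, 2.93%, 5.44%, 8.27%, 9.83%, 13.1%, 15.8%, 21.6% and 30.6% of cases from the second class (1.55 to 4.17 kb) to the longest (over 108.5 kb). None of the 2190 shortest genes held one, since a gene must exceed 2 kb to qualify. Hosts had a median length of 53.4 kb and all protein-coding genes one of 17.2 kb.

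Pooled over lengths, host genes carried Slug peaks more often than other genes weighted to the same length classes. A Slug peak lay inside or within 1 kb of 68.7% (66.8 to 70.6) of hosts and 37.0% of other protein-coding genes. Weighting the other genes to the hosts' length classes brought their share to 61.9%, which is still below the interval of the hosts. By class, hosts had the lower Slug share in class 3 (15.6% against 18.1%) and class 5 (29.3% against 30.4%). Their Slug share was higher in the other classes that held hosts. The longest class runs from 108.5 to 2390 kb, so lengths within it may still differ. Snail peaks within 1 kb of a gene's own ends were found at 52.9% (50.9 to 54.9) of hosts and 48.2% of other genes, or 53.9% after weighting. The pooled Snail values cover opposite directions: hosts had the lower share in each of length classes 3 to 9, such as 41.2% against 52.2% in class 4 and 49.2% against 58.4% in class 5. Hosts had the higher share in class 2 (56.5% against 40.3%) and in the longest class (54.2% against 43.3%). These differences within classes were not tested.

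Among the protein-coding genes with the most peaks were Rap1gap2, Gse1, Bach2, Dst and Kirrel3. Among genes with 6 peaks, of which there were 8, ties were broken by name. Rap1gap2, a GTPase activator of Rap1, held 8 over 227.6 kb, with scores from 103 to 172, 1 of them 166 bp from an annotated start. Gse1, which encodes a protein of the CoREST-type corepressor complexes, held 7 with scores from 117 to 396. A count of 6 peaks each was found in Bach2, a repressor that pairs with small Maf proteins, in Dst, which encodes the cytoskeletal linker dystonin, and in the adhesion gene Kirrel3. In Dst the strongest, at a score of 433, was centred 36 bp from an annotated start, 103.7 kb from the 5′ end. Slug peaks also lay in or within 1 kb of these 5 genes, from 7 at Kirrel3 to 13 at Gse1 and Bach2.

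**Figure D4:**
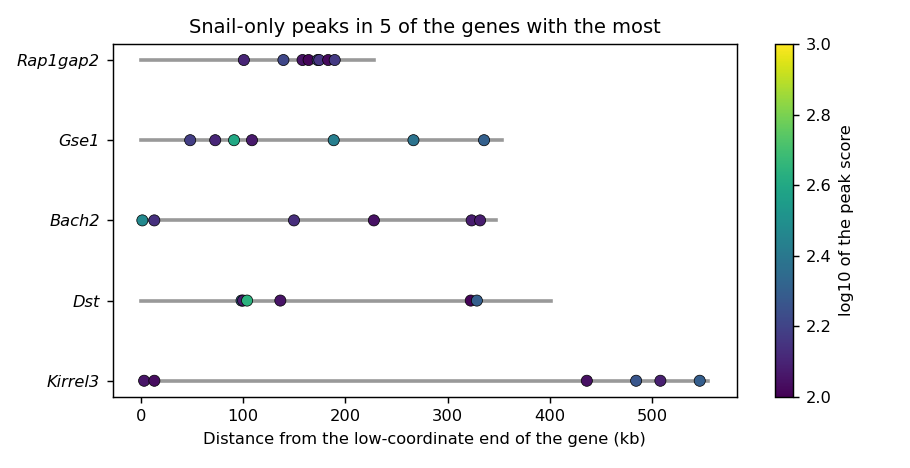
Positions of the Snail-only peaks in 5 of the protein-coding genes with the most of them, as distance from the low-coordinate end of each gene (horizontal axis, kb), with grey lines for the gene spans and colour for log10 of the peak score. Rap1gap2 has 8 peaks between 101 and 189 kb from its low-coordinate end, and Kirrel3 has none between its first 2 and last 4 peaks.

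Gene lists were read against the 10.9% of all protein-coding genes and against the number that genes of the same length classes would give. In 3 of the lists described here the share was 40.0% or more. Focal adhesion and actin linker genes, which tie integrins to the cytoskeleton, had a peak in 14 of 32 (43.8%, 26.4 to 62.3), where length classes gave 6.75. Nedd9, an adhesion scaffold of the Cas family, had 3 peaks, the strongest with a score of 1362 at chromosome 13, 41358467 to 41359449. Tns3, which encodes tensin 3, had 2 with a highest score of 764.6.

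AP-1, Runx, Ets and related transcription factors had one in 15 of 35 (42.9%, 26.3 to 60.6), where length classes gave 5.72. They held 32 peaks together. Nfia, a nuclear factor I gene, had 5 peaks with a highest score of 1008. The small Maf gene Maff had 2, the stronger with a score of 743 and 136 bp from a start. Notch pathway genes had one in 8 of 20 (40.0%, 19.1 to 63.9), where length classes gave 2.94. Maml3, a coactivator of Notch, led with 1062 and the receptor gene Notch4 followed with 952. The lists were chosen with results of these data known, so the counts are a description.

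**Figure D5:**
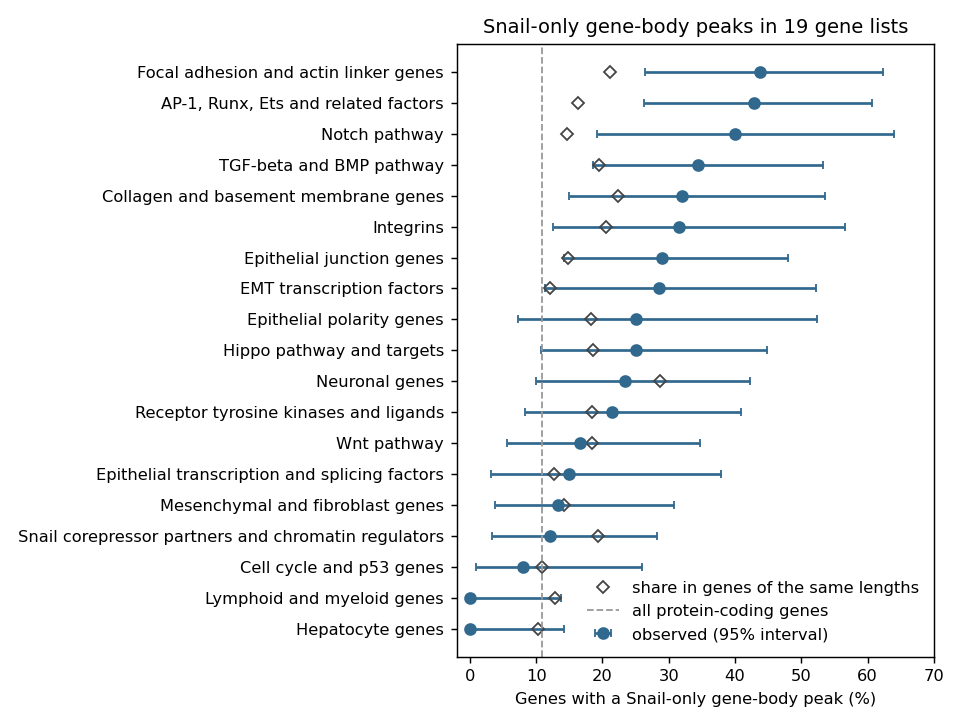
Share of genes with a Snail-only gene-body peak in 19 gene lists (horizontal axis, %), with exact 95% intervals as bars, diamonds for the share found in protein-coding genes of the same length classes and a dashed line at the share of all protein-coding genes. The highest shares are those of focal adhesion genes (43.8%), AP-1 and related factors (42.9%) and the Notch pathway (40.0%), and the lymphoid, myeloid and hepatocyte lists are at 0.

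The EMT and epithelial lists had smaller shares before length is considered. EMT transcription factor genes were shorter, with a median of 5.59 kb against 77.6 kb for focal adhesion genes. EMT transcription factors had a peak in 6 of 21 (28.6%, 11.3 to 52.2), where length classes gave 2.55 genes. Prrx1, a homeobox inducer of EMT, had one with a score of 840.1 at chromosome 1, 163311705 to 163312929, 2.83 kb from its nearer end, and Ets1 had 3 with a highest score of 610.3. The other 4 were Tcf4, Twist1, Zeb2 and Twist2, with highest scores of 386, 193, 119 and 108. No peak of this list outside chromosome 18, which carries Tcf4, lay within 500 bp of a start in the table. Ets1 had no listed start within its span, so its peaks could not be judged either. Tcf4 and Ets1 each held 3 of the list's 10 peaks. Epithelial junction genes had one in 9 of 31 (29.0%, 14.2 to 48.0), where length classes gave 4.57. Tjp1, which encodes the tight junction scaffold ZO-1, had 4, of which the one at chromosome 7, 65370683 to 65371820 scored 1082 and lay on the start printed above. It stood 75.1 kb from the nearer end of the gene and 67.6% of the way along it. Its other 3 peaks scored from 106 to 201. Nectin1, an immunoglobulin-type adhesion gene, had 3 with a highest score of 909.

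Epithelial polarity genes had one in 4 of 16, where length classes gave 2.93, led by Llgl1 (443) and the atypical protein kinase C gene Prkci (242). Epithelial transcription and splicing factors had one in 3 of 20, and length classes gave 2.53. These were Tfap2a, which encodes AP-2 alpha, with a score of 1107, the luminal factor gene Gata3 with 832, and Rbm47, a splicing regulator, with 126. Of the mesenchymal and fibroblast genes 4 of 30 (13.3%, 3.76 to 30.7) had one, where length classes gave 4.27. Itgav, the integrin alpha v gene, led with 1225 at chromosome 2, 83723749 to 83725283, and the matrix metalloproteinase gene Mmp2 followed with 522.

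Matrix and signalling lists had shares between 16.7% and 34.4%. Collagen and basement membrane genes had a peak in 8 of 25, where length classes gave 5.59, all with scores below 250, led by Col16a1 at 246.6 and Col12a1 at 218. Integrin genes had one in 6 of 19, where length classes gave 3.89, led by Itgav and by Itgb6 at 318. In the TGF-beta and BMP pathway 11 of 32 genes held a peak (34.4%, 18.6 to 53.2), where length classes gave 6.25. Ltbp1, which encodes a binding protein of latent TGF-beta, led with 328, 57 bp from a start, and the Smad corepressor gene Ski had 3 with a highest score of 265. Wnt pathway genes had one in 5 of 30, where length classes gave 5.51, led by the ligand genes Wnt7b (317) and Wnt10a (267). Hippo pathway genes and targets had one in 7 of 28, where length classes gave 5.19, led by the cadherin Fat1 (1003) and by Vgll4 (847), a cofactor of the Tead factors. Receptor tyrosine kinases and ligands had one in 6 of 28, where length classes gave 5.15, led by Igf1r (444) and Vegfa (369).

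Of Snail corepressor partners and chromatin regulators, 4 of 33 (12.1%, 3.403 to 28.2) had a peak, where length classes gave 6.37. The deacetylase gene Hdac4 had 2, the stronger with a score of 964 and 370 bp from a start. Cell cycle and p53 genes had one in 2 of 25, where length classes gave 2.71. These were Ccna2 (749) and Ccnd3 (305, 68 bp from a start). Neuronal genes, among the longest with a median of 444 kb, had one in 7 of 30 (23.3%, 9.93 to 42.3), where length classes gave 8.59. Dlgap1 (276) and Gria1 (214) led them, and Rbfox1 held the 2 peaks farthest from any gene end of the whole set, at 609.6 and 448.9 kb. The next farthest lay in Adgrv1 at 231 kb and Nav3 at 223 kb. No lymphoid or myeloid gene of 25 had one, where length classes gave 3.22 genes, which allows a share of up to 12% by a limit of 3 counts (exact upper bound 13.7%). No hepatocyte gene of 24 had one, where length classes gave 2.45, which allows up to 12.5% by the same limit (exact upper bound 14.2%).

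The same lists were read for Slug-only gene-body peaks chosen by the same limits, which 18.3% of protein-coding genes held. Slug-only peaks lay in 13 of the 35 AP-1, Runx, Ets and related genes and in 14 of the 32 focal adhesion genes, where length classes gave 11.3 and 13.6. They lay in 7 of the 20 Notch pathway genes, where length classes gave 5.41. TGF-beta and BMP genes held one in 18 of 32 (length classes 12.01) and Hippo genes in 15 of 28 (10.24). Receptor tyrosine kinases and ligands held one in 14 of 28 (9.81) and EMT transcription factors in 8 of 21 (5.16). Counts were below the length classes for epithelial junction (7, 7.90), mesenchymal (7, 7.43) and hepatocyte genes (3, 3.745). Counts above the length classes were thus not particular to Snail-only peaks. Neuronal genes held Slug-only peaks in 22 of 30 cases, where length classes gave 19.2, and Snail corepressor partners in 15 of 33, where these gave 12.3. As above, lengths within the longest class were not matched. The difference between the factors was not tested for any list.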

How the data were processed

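The deposited peak lists of 1 Snail and 1 Slug ChIP-seq library were used. The submitters' processing notes name Bowtie, MACS 1.4.2 and mm10. MACS settings, Bowtie version and control were not given in the sources used here. In the deposited lists a peak has coordinates and the score that the authors' caller assigned, at least 50 in both lists, on a scale the files leave unstated. Peaks were ranked by score within a list only, but the same score limits and classes were applied to both lists. Whether equal scores mean the same in both lists is unknown, so Snail and Slug classes of equal score may not match. The lists hold no read counts, so depth is unknown. Chromatin had been fixed with 1% formaldehyde and sheared to about 200 to 500 bp, per the labels' protocols.

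Positions were made 1-based and midpoints set against 49943 RefSeq genes of GRCm38.p6, the assembly of mm10. Starts and sequences came from a RefSeq table. Shares carry exact (Clopper-Pearson) and differences Newcombe 95% intervals, for counting error only. There were no replicates and no test across samples. The interval, overlap and host-gene routines were checked on simulated data. Python 3.11.15, numpy 2.4.6, pandas 2.3.3, scipy 1.17.1 and matplotlib 3.10.9 were used.

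The peaks and the 21 gene lists (566 memberships, all matched) were chosen with earlier results of these data known. The comparison with annotated starts was added after the data were seen. Genes were named by rule: hosts of the 12 highest-scoring peaks, the 6 genes with the most peaks, the 2 leading genes of each list, the 2 peaks on each side of the score limit and the 4 peaks farthest from gene ends. Other genes were named after their values were seen. Results for 2 lists and 2 genes that the rule names are not reported here. The planned E-box counts over whole peaks were not run, since no genome sequence was used here.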

Additional observations from a re-analysis of the deposited data

How the results depend on the processing

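The number of peaks followed the limits: 7667 with a lowest score of 50, 1513 with 200 and 788 with 400, 2270 with widths below 1000 bp and 2022 at 5000 bp from gene ends. A lowest score of 200 gave 91.5% in protein-coding genes, 5.86% of protein-coding genes with a peak, 44.9% of hosts with a Snail peak at an end, 64.3% with a Slug peak and 40.8% of peaks at a start. A distance of 5000 bp gave 90.5%, 6.51%, 58.6%, 79.4% and 16.2% for the same measures, a median of 14.5 kb to the nearest gene end and 41.3% with another Snail peak within 10 kb. Within 50 kb, 88.7% had another Snail peak. Counting a Slug peak within 1000 bp as overlap left 10.3% of protein-coding genes with a peak. Windows of 200 and 1000 bp around a start gave 15.8% and 24.2% at a start. Without the peaks at starts, a setting added after seeing the data, the shares were 85.1% in protein-coding genes, 8.32% of protein-coding genes, 59.0% of hosts with a Snail peak at an end and 73.6% with a Slug peak. Where these settings drop peaks, the fewer peaks are the direct reason for lower counts; otherwise the cause was not tested. Whole-peak E-box counts were not run. No paired analysis was possible because each factor had 1 library. Depth is unknown, so a site without a peak may be one that was not detectable.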

Other observations

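Zinc finger genes were frequent at the top of the Snail-only gene-body peaks and were looked at after that was seen. Of 469 protein-coding genes whose symbols begin with Zfp, Znf, Zscan, Zkscan or Zbtb, 70 (14.9%, exact 95% interval 11.8 to 18.5) held such a peak, against 10.9% of all protein-coding genes and 50.04 genes from their length classes. Their 78 peaks had a median score of 397, and the other Snail-only gene-body peaks one of 178. Outside chromosome 18, 32 of 73 (43.8%, 32.2 to 55.9) lay within 500 bp of an annotated start, and 20.9% of the other peaks did. The choice followed the data, so these counts are a description.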
